A study of Mus musculus with 9 samples.

Results

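The 41 genes described here are known from blood cells other than B cells, and were picked by symbol from the 17596 genes of an RNA-seq table of purified splenic B cells. They comprise 17 macrophage genes, 4 genes shared by myeloid cells, 8 neutrophil genes, 1 eosinophil gene, 5 T cell genes, 2 natural killer (NK) cell genes and 4 erythroid genes, and all 41 symbols were in the table. RNA of primary mouse B cells was sequenced in 9 libraries. Naïve B cells (day 0) came from Mb1Cre mice (control, 2 libraries) and Mct1f/fMb1Cre mice (2 libraries), called control and mutant from here on. Cells kept with 10 μg/ml LPS plus 50 ng/ml IL-4 until day 3 gave 2 control and 3 mutant libraries. Mice had a C57BL/6J background and were 6 to 8 weeks old. Both genotypes carried the *Mb1*-Cre allele, whose promoter drives the recombinase in the B lineage, so the floxed *Mct1* (*Slc16a1*) gene is meant to be deleted in B cells and not in the other blood cells described here. The labels do not name the mouse behind each library, and the p-values therefore measure the spread between libraries. Values are fragments scaled to transcript length and to the mapped fragments of the library (FPKM), which leaves the sequencing depth unknown, and the summed FPKM per library was 477079 to 491459 on day 0 and 547355 to 563586 on day 3.

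Preparations of spleen B cells can hold other blood cells beside them. Red pulp macrophages of the spleen engulf aged red cells and recycle their iron, and they depend on the transcription factor Spi-C. Neutrophils carry preformed granule proteins whose messages are made early in their maturation. T cells are known by the CD3 complex, NK cells by the receptor NKp46 (*Ncr1*) and red cell precursors by haemoglobin. LPS with IL-4 drives B cells to divide and to switch antibody class.

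The identity of the samples was checked first. *Slc16a1*, the floxed gene, was at 4.33, 3.8, 3.71 and 4.06 FPKM on day 0 and at 22.6, 22.9, 10.8, 9.81 and 9.5 FPKM on day 3, always in the order control replicates 1 and 2, then mutant replicates 1, 2 and, on day 3, 3. The genotypes overlapped on day 0, where *Slc16a1* does not bear out the labels and mutant stands for a library labelled so. They were separate on day 3, where *Slc16a1* was lower in mutant B cells by a log2 difference of -1.11 (SE 0.071, adjusted p = 9.07e-06). The B cell genes were abundant on both days, with *Cd79a* at 1573 to 1714 FPKM on day 0 and 502 to 575 FPKM on day 3, *Cd79b* at 1059 to 1299 FPKM on day 0 and 613 to 642 FPKM on day 3 and *Cd37* at 919.5 to 1009 FPKM on day 0 and 461 to 480.0 FPKM on day 3. Others of them fell further, and are given because of those values: *Fcrla*, an Fc receptor-like protein of B cells, was at 253 to 284 FPKM on day 0 and 12.2 to 15.9 FPKM on day 3, and *Blk*, a B cell kinase, at 177 to 186 FPKM on day 0 and 18.1 to 19.4 FPKM on day 3. Of 12 B cell genes tested, 11 were lower on day 3 in each genotype, where 33.0% and 33.2% of all genes tested were called lower, with a median log2 change of -1.29 in control and -1.28 in mutant B cells.

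Libraries of day 0 stood apart from each other in genes of other cells. Control replicate 1 held 25 genes at 5 FPKM or more and at over 3 times the highest other day 0 library, against 0, 4 and 0 genes in the other libraries. Among these were the collagens *Col1a1* (28.8 FPKM against at most 1.25) and *Col1a2* (17.5 against at most 0.47), the osteoclast protease *Ctsk* (39.1 against at most 1.03), *Spp1* (25.9 against at most 1.03) and, of the genes described here, *Mmp9* (107 against at most 13.7). These genes were named after their values were seen. Mutant replicate 1 was high in neutrophil genes (below). It was also above 1.5 times the mean of the other 3 day 0 libraries in 3 of 3 erythroid members with a ratio (median ratio 1.63) and in 2 of 3 basophil or mast cell markers (median 2.43). Of all 11000 genes at 1 FPKM or more on day 0, 154 were so in this library and 59 in mutant replicate 2. Mutant replicate 2 was so in 6 of 10 further erythroid markers (median 1.56, against 0.59 in control replicate 2), but in 0 of 3 erythroid members (median 0.857). Mutant replicate 1 in turn was so in 1 of the 10 further erythroid markers (median 0.879). The erythroid members and the further erythroid markers thus differed in which mutant library was high. The 4 genes that set replicate 1 apart were Y-linked. *Ddx3y* was at 31.1 FPKM in this library, at 0.02 to 0.24 FPKM in the other 3 day 0 libraries and at 14.7 to 16.9 FPKM in all 5 day 3 libraries. Both day 0 control libraries were therefore below both day 3 libraries in *Ddx3y*, and day and sex cannot be told apart in this genotype. The part of sex in the falls was not tested.

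All groups of non-B genes were present on day 0 and nearly all were lower on day 3. The 41 genes summed to 2173 and 2429 FPKM in the control and 3493 and 2328 FPKM in the mutant day 0 libraries, which was 0.455% to 0.724% of each library's FPKM. On day 3 they summed to 63.1 and 63.2 FPKM and to 74.2, 70.6 and 78.4 FPKM, or 0.0112% to 0.0143%. Day 0 thus held the higher sum in every library, and *Lyz2*, the most abundant gene on day 0, gave 23.2% to 28.8% of it on day 0 and 15.9% to 26.0% on day 3. In bulk RNA, fewer cells of a type and less RNA per cell cannot be told apart.

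Each gene was tested with limma on log2(FPKM + 1) in a fit of the 10823 genes that averaged 1 FPKM or more, and calls required adjusted p-values under 0.05 together with log2 changes above 0.5 in size. The scale understates the change of genes with few FPKM. In control B cells 37 of the 39 genes tested were lower on day 3, where 33.0% of all genes tested were called lower, and the count was also 37 without day 0 replicate 1. None was higher, with 0 at an unadjusted p under 0.05, where 24.8% of all genes were called higher. In mutant B cells 38 of the 39 were lower against 33.2% of all genes, and none was higher (0 at an unadjusted p under 0.05) against 23.4% of all genes. The median log2 change of the 39 genes was -3.87 and -3.89, beside -0.12 and -0.14 for all genes tested. Of the 39 genes, 25 had a day 3 mean under 1 FPKM and passed the filter through their day 0 level, as did 6.4% of all genes tested, so their counts describe a fall that the filter favours. The genes below the filter were *Cd3d* at 1.52 to 2.34 FPKM on day 0 and 0.12 to 0.3 FPKM on day 3 and *Alas2* at 0.64 to 1.23 FPKM on day 0 and 0.03 to 0.19 FPKM on day 3, and with no filter both were called lower in each genotype. In each genotype, 31 of the 41 genes had a day 0 mean of at least 10 times the day 3 mean and 17 of at least 100 times. Of all genes tested, 4.39% and 4.18% fell 10-fold or more and 1.05% and 1.08% fell 100-fold or more in control and mutant B cells. Among the 10 genes with the largest mean log2 fall of all 10823 tested, 8 were of the 41, among the largest 20, 13 were, and among the largest 50, 15 were. The genes were chosen with results of these libraries known, and this ranking is a description.

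**Figure D1:**
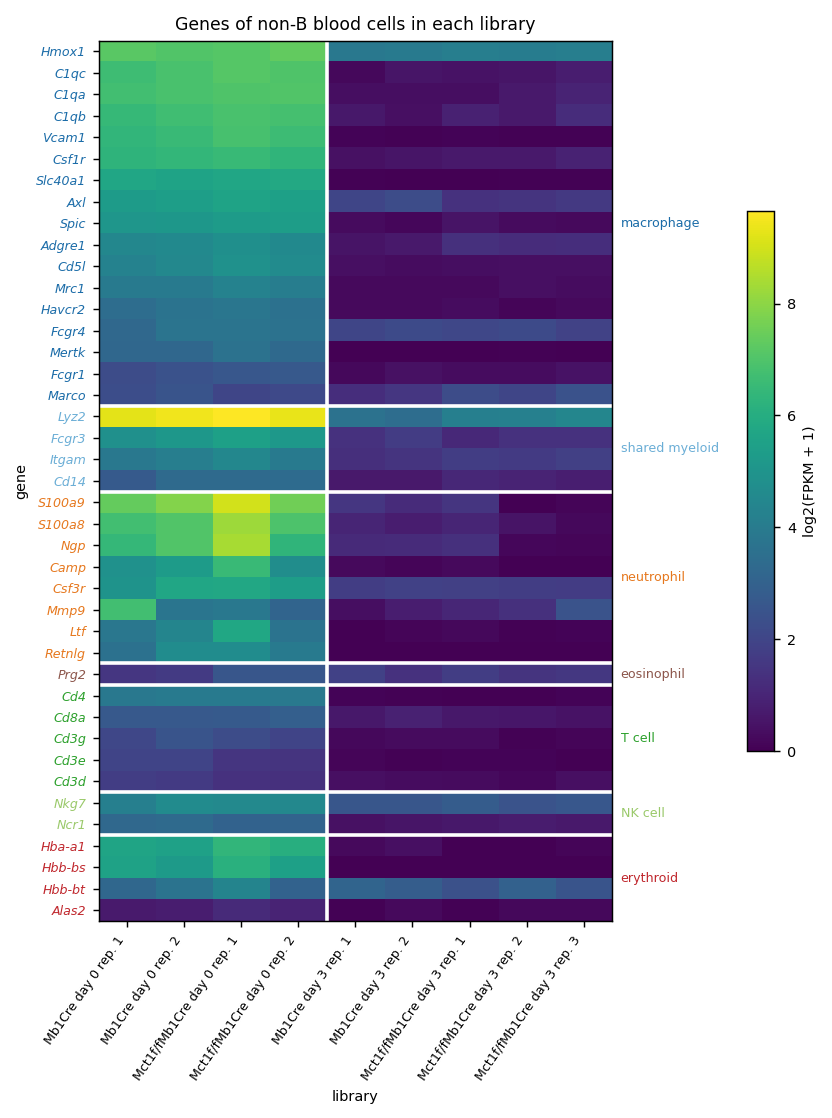
Log2(FPKM + 1) of the 41 genes (rows, grouped by the cell they are known from) in the 9 libraries (columns, day 0 left of the vertical line). The day 3 columns are dark for nearly all genes, while *Hmox1*, *Lyz2*, *Nkg7* and *Hbb-bt*, among others, keep colour, and most neutrophil genes are brightest in Mct1f/fMb1Cre day 0 replicate 1.

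Macrophage genes were the most numerous, with 17 of the 41. They summed to 806 to 982 FPKM on day 0 and to 24.0 to 32.3 FPKM on day 3, and all 17 were called lower in control and 16 in mutant B cells, with medians of -3.93 and -4.09. The chains of complement C1q, which macrophages secrete, are encoded side by side on chromosome 4 of GRCm38.p6, *C1qa* at chr4:136895916-136898844, *C1qc* at chr4:136889801-136892936 and *C1qb* at chr4:136880126-136886200. *C1qa* was at 105, 119, 127 and 129.7 FPKM on day 0 and at 0.29, 0.29, 0.29, 0.58 and 0.97 FPKM on day 3. *C1qb* was at 87.9, 103, 116 and 112 FPKM on day 0 and at 0.52, 0.33, 0.85, 0.57 and 1.37 FPKM on day 3. *C1qc* was at 101, 118, 137 and 128 FPKM on day 0 and at 0.15, 0.45, 0.4, 0.45 and 0.69 FPKM on day 3. Every day 0 library lay far above every day 3 library for all 3 chains. *C1qa* fell by 6.45 (SE 0.15, adjusted p = 1.77e-11) in control and fell by 6.35 (SE 0.14, adjusted p = 1.00e-11) in mutant B cells on the log2 scale.

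Promoters of *C1qb* and *C1qc* are shown because the chains of this locus moved together, and that of *C1qa* is not shown. PU.1, a factor known to act in macrophages and B cells, recognizes a core written here as GAGGAA, searched on both strands in RefSeq windows from 250 bases before to 50 after the start site, which 31 of the 41 genes had. Of 11 macrophage windows, 9 held the motif, as did 3 of 4 T cell windows, 18 of the 31 windows of all groups and 28.3% of all 32851 windows of this length. The 250 bases before the start are given for *C1qb* (chr4:136886201-136886450) and *C1qc* (chr4:136892915-136893164), both read from the minus strand of GRCm38.p6. The *C1qc* window takes a start site that lies inside the gene span given above, so that its last bases fall within that span. Each is printed with the match in capitals, as GAGGAA or its complement TTCCTC.
C1qb: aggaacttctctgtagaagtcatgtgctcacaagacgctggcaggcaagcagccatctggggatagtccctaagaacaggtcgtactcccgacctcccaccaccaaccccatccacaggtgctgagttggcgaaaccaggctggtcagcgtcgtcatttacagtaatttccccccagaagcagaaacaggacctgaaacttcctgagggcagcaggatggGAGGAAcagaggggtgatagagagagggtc
C1qc: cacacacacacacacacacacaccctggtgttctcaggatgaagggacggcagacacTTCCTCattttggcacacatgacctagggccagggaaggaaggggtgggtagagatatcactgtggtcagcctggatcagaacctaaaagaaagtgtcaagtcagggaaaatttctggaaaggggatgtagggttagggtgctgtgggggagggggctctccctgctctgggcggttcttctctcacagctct
Each sequence held 1 match. A match describes these letters and is not a binding site shown by the data.

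Genes of red pulp macrophages, among them those of iron and haem handling, were also lower on day 3. *Spic*, the factor that red pulp macrophages need, was at 33.01, 33.7, 38.8 and 40.2 FPKM on day 0 and at 0.21, 0.12, 0.41, 0.21 and 0.2 FPKM on day 3. *Slc40a1*, the iron exporter ferroportin, was at 51.2, 47.7, 51.4 and 56.7 FPKM on day 0 and at 0.03, 0.02, 0.02, 0.03 and 0.03 FPKM on day 3. *Vcam1*, an adhesion molecule of splenic macrophages, was at 81.9, 92.01, 115 and 98.7 FPKM on day 0 and at 0.06, 0.03, 0.07, 0.03 and 0.04 FPKM on day 3. *Slc40a1* and *Vcam1* were thus near 0 in every day 3 library, and they fell by 5.62 (SE 0.073, adjusted p = 1.50e-12) and by 6.39 (SE 0.084, adjusted p = 1.50e-12) in control B cells. *Hmox1*, which degrades haem, was at 143, 131, 139 and 163 FPKM on day 0 and at 13.5, 14.2, 16.6, 15.9 and 16.4 FPKM on day 3. It kept 10.1% of its control and 10.8% of its mutant day 0 mean, and as the most abundant of these genes per length it gave 50.7% to 56.5% of the macrophage sum on day 3. *Cd5l*, a secreted protein of tissue macrophages, was at 18.4, 21.6, 28.2 and 24.1 FPKM on day 0 and at 0.33, 0.25, 0.28, 0.33 and 0.33 FPKM on day 3.

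Receptors of macrophages followed the same course with some exceptions. *Csf1r*, the receptor for the growth factor that macrophages live on, was at 76.1, 82.5, 90.99 and 79.2 FPKM on day 0 and at 0.35, 0.46, 0.58, 0.6 and 0.9 FPKM on day 3. *Adgre1*, which encodes F4/80, was at 21.02, 22.9, 27 and 22.8 FPKM on day 0 and at 0.44, 0.58, 1.5, 1.37 and 1.39 FPKM on day 3. *Axl*, a receptor for dying cells, was at 38.1, 41.99, 48.2 and 44.4 FPKM on day 0 and at 3.05, 3.76, 1.58, 1.76 and 2.03 FPKM on day 3. *Axl* and *Adgre1* kept low values that differed between the genotypes (below). The mannose receptor *Mrc1* was at 14.3, 14.9, 18.3 and 16.1 FPKM on day 0 and at 0.19, 0.2, 0.17, 0.32 and 0.26 FPKM on day 3. *Havcr2*, the inhibitory receptor TIM-3, was at 9.94, 11.8, 12.96 and 11.3 FPKM on day 0 and at 0.17, 0.2, 0.25, 0.09 and 0.19 FPKM on day 3. Both were under 0.5 FPKM in every day 3 library. *Fcgr4*, an activating Fc receptor, was at 8.53, 11.99, 12.1 and 11.4 FPKM on day 0 and at 3.09, 3.48, 3.13, 3.5 and 2.78 FPKM on day 3 and kept 32.02% and 26.7% of its level. *Mertk*, a receptor for dying cells related to *Axl*, was at 8.45, 8.31, 11.4 and 8.9 FPKM on day 0 and at 0.01, 0, 0, 0.03 and 0.01 FPKM on day 3, and was thus near 0 in every day 3 library. The Fc receptor *Fcgr1* was at 3.73 to 5.45 FPKM on day 0 and 0.16 to 0.37 FPKM on day 3. *Marco*, a scavenger receptor of marginal zone macrophages, was at 3.82, 4.64, 3.1 and 3.41 FPKM on day 0 and at 1.39, 1.85, 3.74, 3.01 and 4.36 FPKM on day 3. It fell by 1.00 (SE 0.14, adjusted p = 4.09e-05) in control B cells, and in mutant B cells, where the days overlapped, its log2 change was 0.14 (SE 0.13, adjusted p = 0.333).

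The genes shared by myeloid cells were lower on day 3 in all 4 cases in each genotype. *Lyz2*, lysozyme, was the most abundant of the 41 genes on day 0, at 614, 701, 809 and 641 FPKM on day 0 and at 11.5, 10.04, 16.8, 17.6 and 20.4 FPKM on day 3. It fell by 5.81 (SE 0.12, adjusted p = 8.07e-12) in control and fell by 5.23 (SE 0.11, adjusted p = 7.77e-12) in mutant B cells, and still had over 10 FPKM in each day 3 library. *Fcgr3*, the Fc receptor CD16, was at 27.6, 33.6, 43.5 and 34.4 FPKM on day 0 and at 1.57, 2.32, 1.19, 1.62 and 1.62 FPKM on day 3. *Itgam*, the integrin CD11b, was at 13.5, 16.6, 21.3 and 14.9 FPKM on day 0 and at 1.47, 1.76, 2.39, 2.15 and 2.53 FPKM on day 3. Neither was lost entirely. *Cd14*, the co-receptor for LPS, was at 5.64 to 9.33 FPKM on day 0 and 0.59 to 1.09 FPKM on day 3.

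**Figure D2:**
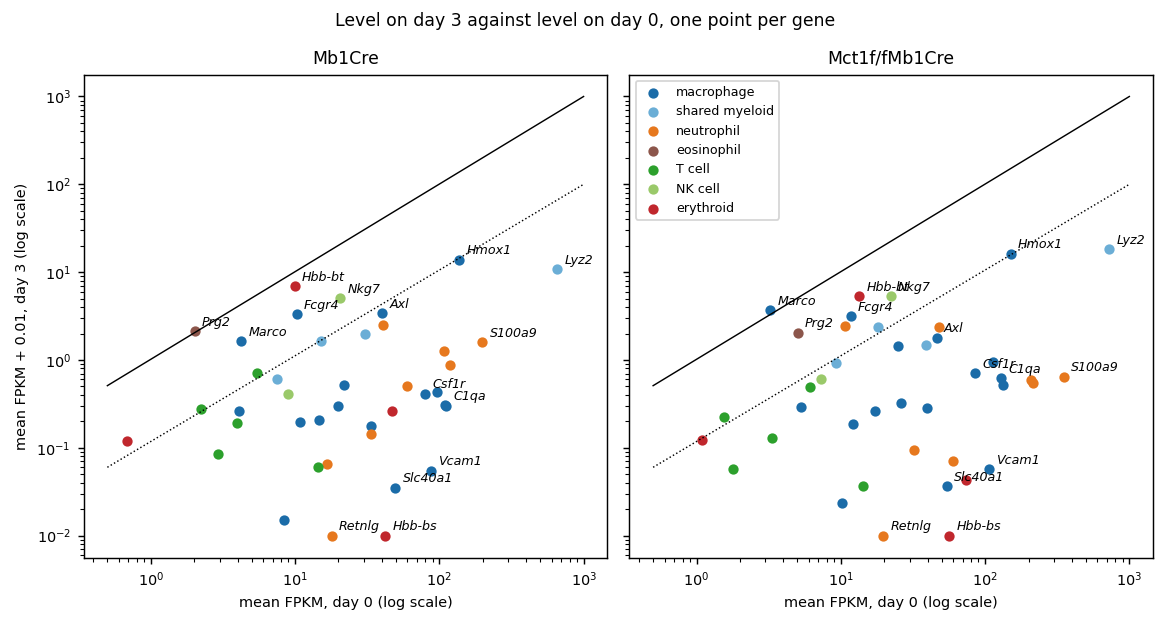
Mean FPKM of each of the 41 genes on day 0 (x) and day 3 (y, with 0.01 added so that 0 can be drawn), both on log scales, for Mb1Cre (left) and Mct1f/fMb1Cre (right) libraries, coloured by cell. The solid line marks equal levels and the dotted line a 10-fold fall, below which most genes lie, while *Prg2* and *Hbb-bt* (left) and *Marco* (right) are near the solid line.

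All 8 neutrophil genes were called lower on day 3 in both genotypes, with medians of -4.79 and -5.09, and they were the group that varied most between the day 0 libraries. Their sum was 547 and 639 FPKM in control and 1393 and 493 FPKM in mutant libraries on day 0, and 4.51 to 8.27 FPKM on day 3. *S100a9*, a calcium-binding protein of the neutrophil cytosol, was at 166, 232, 514 and 187 FPKM on day 0 and at 1.91, 1.28, 1.8, 0 and 0.11 FPKM on day 3. Its partner *S100a8* was at 107, 131, 304 and 125 FPKM on day 0 and at 1.02, 0.73, 1.02, 0.44 and 0.15 FPKM on day 3. *Ngp*, a granule protein, was at 84.8, 129, 337 and 79.4 FPKM on day 0 and at 1.22, 1.27, 1.53, 0.13 and 0.09 FPKM on day 3. Mutant replicate 1 was the highest day 0 library for all 3 genes. The antimicrobial peptide gene *Camp* was at 28.2, 38.4, 93.4 and 25.6 FPKM on day 0 and at 0.18, 0.09, 0.18, 0 and 0 FPKM on day 3. Lactoferrin (*Ltf*), of the secondary granules, was at 13.2, 20, 52.6 and 11.9 FPKM on day 0 and at 0.02, 0.09, 0.15, 0.04 and 0.06 FPKM on day 3. The same library was again the highest, and over these 5 genes it held 2.51 to 3.49 times the mean of the other 3 day 0 libraries. *Csf3r*, the receptor for the growth factor of neutrophils, was at 30.6, 51.2, 54.1 and 41.1 FPKM on day 0 and at 2.37, 2.62, 2.55, 2.35 and 2.26 FPKM on day 3, and mutant replicate 1 held 1.32 times the mean of the others. *Retnlg*, a resistin-like gene of mature neutrophils, was at 11.1, 24.7, 24.9 and 14.5 FPKM on day 0 with a ratio of 1.49, and was listed at 0 in all 5 day 3 libraries. The ratios of *Csf3r* and *Retnlg* were thus below those of the 5 granule and cytosolic genes.

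*Mmp9*, a gelatinase of neutrophil granules that other cells also make, was at 107, 12.4, 13.7 and 7.74 FPKM on day 0 and at 0.29, 0.69, 1.04, 1.55 and 4.61 FPKM on day 3. Control replicate 1 was far above the other day 0 libraries, unlike for the other 7 neutrophil genes, of which it held 0.466 to 0.626 times the mean of the others. In that library *Ctsk* and the collagens were also high, and their part in the *Mmp9* level was not tested. *Mmp9* fell by 4.68 (SE 0.76, adjusted p = 1.41e-04) in control and fell by 1.88 (SE 0.69, adjusted p = 0.0254) in mutant B cells. The first value moved to -3.18 without control day 0 replicate 1 and to -6.19 without replicate 2, and was called in both cases. The second call was lost without mutant day 0 replicate 1 (-1.51, adjusted p = 0.134) and without day 3 replicate 1 (-1.58, adjusted p = 0.08195) or 2 (-1.74, adjusted p = 0.0679). On day 3 some neutrophil genes were uneven among mutant libraries, with *S100a9* at 1.80 FPKM in replicate 1 and at 0 and 0.11 FPKM in replicates 2 and 3. *Ngp* showed the same split, while *Mmp9* was highest in replicate 3.

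The promoter of *Ngp* (chr9:110419558-110419807, plus strand, GRCm38.p6) is shown as an example of a granule gene. C/EBP factors, which drive granule genes, recognize a site written here as TTGCNNAA. On either strand it was in 4 of 7 neutrophil windows, 7 of the 31 windows of all groups and 10.8% of all windows. The 250 bases before the start hold 2 matches, in capitals, written TTGCCCAA and in complement TTGGGCAA.
Ngp: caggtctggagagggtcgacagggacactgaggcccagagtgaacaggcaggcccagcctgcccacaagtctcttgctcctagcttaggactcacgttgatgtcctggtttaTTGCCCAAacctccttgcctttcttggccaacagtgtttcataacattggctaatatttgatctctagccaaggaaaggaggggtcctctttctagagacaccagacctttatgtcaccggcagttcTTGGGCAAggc
The match describes letters only.

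**Figure D3:**
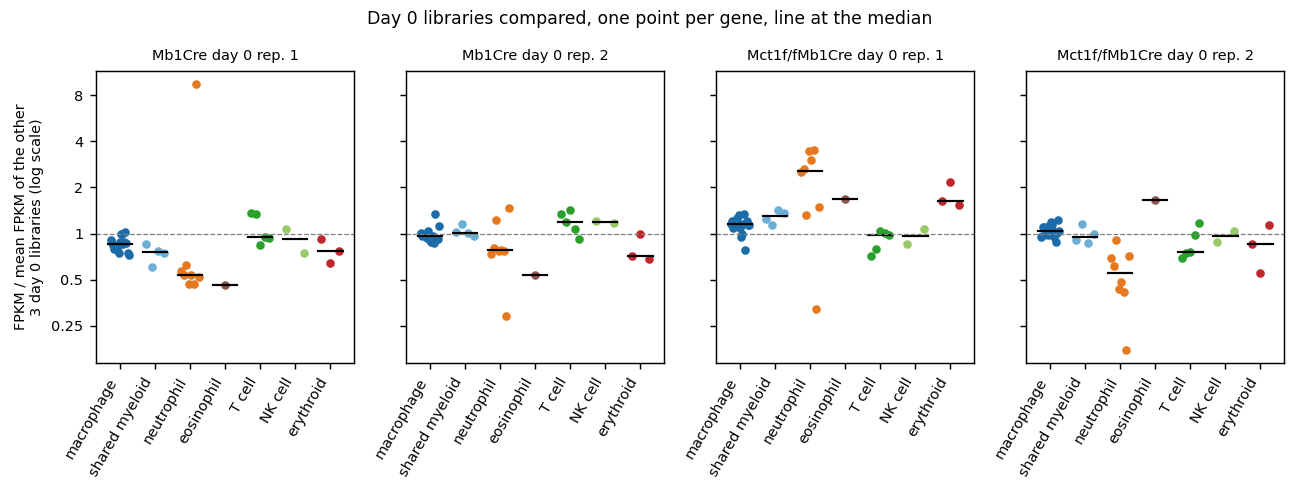
FPKM of each gene in a day 0 library divided by its mean in the other 3 day 0 libraries (log scale), with 1 panel per library, 1 point per gene with a day 0 mean of at least 1 FPKM, and a line at the median of each group. Neutrophil genes sit at a median of 2.57 in Mct1f/fMb1Cre replicate 1, and *Mmp9* is the single high point, at 9.45, in Mb1Cre replicate 1.

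The eosinophil gene did not follow the others. *Prg2*, which encodes major basic protein of eosinophil granules, was at 1.89, 2.14, 5.05 and 5.03 FPKM on day 0 and at 2.61, 1.6, 2.41, 1.71 and 1.96 FPKM on day 3. The days overlapped in control B cells, with a log2 change of 0.02 (SE 0.15, adjusted p = 0.882), whereas in mutant B cells it fell by 1.00 (SE 0.14, adjusted p = 3.09e-05). It is the only eosinophil gene of the 41. Of 8 further eosinophil genes only 2 passed the filter, *Ear2* at 16.2 to 26.6 FPKM on day 0 and 0 to 0.08 FPKM on day 3 and *Ccr3* at 7.8 to 9.71 FPKM on day 0 and 0 to 0.02 FPKM on day 3, and both were called lower in each genotype. *Alox15*, below the filter, was at 0.54 to 2.99 FPKM on day 0 and 0.08 to 0.13 FPKM on day 3. The other 5 genes of the list, *Epx*, *Ear1*, *Ear6*, *Siglecf* and *Prg3*, were at 0.70 FPKM or less in every day 0 library, and are named here because of those values. The genes of the list were thus uneven, and the source of *Prg2* was not tested.

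T cell and NK cell genes were low on day 0 and lower on day 3. The 5 T cell genes summed to 26.7 to 30.1 FPKM on day 0 and 0.77 to 1.37 FPKM on day 3, and all 4 that were tested were called lower in both genotypes. *Cd4*, the co-receptor of helper T cells that some myeloid cells also carry, was at 13.7, 14.98, 14.4 and 13.99 FPKM on day 0 and at 0.07, 0.03, 0, 0.02 and 0.06 FPKM on day 3. It fell by 3.87 (SE 0.082, adjusted p = 1.14e-11) in control B cells. *Cd8a*, of cytotoxic T cells, was at 5.42 to 6.52 FPKM on day 0 and 0.4 to 0.85 FPKM on day 3. Of the CD3 chains, *Cd3e* was at 1.76 to 2.93 FPKM on day 0 and 0 to 0.11 FPKM on day 3 and *Cd3g* at 2.94 to 4.69 FPKM on day 0 and 0.05 to 0.21 FPKM on day 3. *Cd3e* was at 2.93, 2.9, 1.81 and 1.76 FPKM in the single day 0 libraries, and the genotypes did not overlap, but its log2 difference of -0.49 (SE 0.10, adjusted p = 0.0824) did not pass the test. *Nkg7*, a granule gene of NK and cytotoxic T cells, was at 17.2, 24.1, 22.5 and 21.9 FPKM on day 0 and at 4.93, 5.08, 6.1, 4.52 and 5.22 FPKM on day 3. It kept 24.3% and 23.8% of its level. *Ncr1*, the NK receptor NKp46, was at 7.16 to 9.23 FPKM on day 0 and 0.35 to 0.68 FPKM on day 3. Both genes were called lower in each genotype, *Nkg7* with a log2 change of -1.83 and *Ncr1* of -2.81 in control B cells.

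The erythroid genes were split. *Hba-a1* (α-globin) and *Hbb-bs* (β-globin) were lost, while the second β-globin, *Hbb-bt*, remained. *Hba-a1* was at 49.5, 44.8, 82.2 and 66.4 FPKM on day 0 and at 0.2, 0.3, 0, 0 and 0.1 FPKM on day 3. It fell by 5.27 (SE 0.10, adjusted p = 7.19e-12) in control and fell by 6.18 (SE 0.095, adjusted p = 2.04e-12) in mutant B cells. *Hbb-bs* was at 46.4, 37.8, 69.4 and 43.9 FPKM on day 0 and was listed at 0 in all 5 day 3 libraries. *Hbb-bt* was at 8.27, 11.7, 19.6 and 7.3 FPKM on day 0 and at 7.69, 6.16, 4.31, 6.97 and 4.72 FPKM on day 3. Day 0 was above day 3 in each control library, but the log2 change of -0.46 (SE 0.34, adjusted p = 0.229) did not pass the test. In mutant B cells, whose days did not overlap either, it fell by 1.07 (SE 0.31, adjusted p = 0.0076), and its call was lost without day 0 replicate 1 (-0.41, adjusted p = 0.107). The β-globin transcripts are 93% identical over 618 aligned columns and share a run of 430 bases, and *Hba-a1* and *Hba-a2* are 99.8% identical, so the split of reads between the copies is uncertain. *Alas2*, the haem synthesis enzyme of red cell precursors, was at 0.64 to 1.23 FPKM on day 0 and 0.03 to 0.19 FPKM on day 3.

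The β-globin promoters are shown because these neighbours on chromosome 7 differed on day 3. Capitals mark the CACCC and CCAAT boxes on either strand. They also mark AGATAA, a site of GATA factors. The motif CACCC was in 4 of 4 erythroid windows (22 of the 31, and 57.5% of all), CCAAT in 3 of 4 (8 of the 31, and 37.4%) and AGATAA in 2 of 4 (5 of the 31, and 11.2%). The 250 bases before the start are from the minus strand of GRCm38.p6, at chr7:103827929-103828178 and chr7:103813924-103814173.
Hbb-bs: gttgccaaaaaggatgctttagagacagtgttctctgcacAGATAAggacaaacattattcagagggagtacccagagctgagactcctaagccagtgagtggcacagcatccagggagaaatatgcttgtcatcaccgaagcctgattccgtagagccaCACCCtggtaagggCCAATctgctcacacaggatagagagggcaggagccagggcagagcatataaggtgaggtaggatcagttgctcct
Hbb-bt: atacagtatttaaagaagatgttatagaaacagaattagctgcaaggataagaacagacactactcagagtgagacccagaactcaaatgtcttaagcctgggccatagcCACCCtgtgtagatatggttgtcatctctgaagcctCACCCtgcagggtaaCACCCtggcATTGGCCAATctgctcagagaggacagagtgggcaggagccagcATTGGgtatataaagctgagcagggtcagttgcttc
*Hbb-bs* held 1 match of each motif, and *Hbb-bt* held 3 of CACCC, 3 of CCAAT, of which a pair lies end to end on opposite strands, and 0 of AGATAA. No match says only that these letters are not in this window.

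Further markers of the same and other cells were lower on day 3 as well. Of 134 such genes, 130 were in the table and 89 were tested, and 77 were called lower and 4 called higher in each genotype, with medians of -2.30 in control and -2.42 in mutant B cells. All 14 macrophage markers tested of 16 were lower in both genotypes. *Ftl1*, ferritin light chain, which most cells make, was at 1002 to 1092 FPKM on day 0 and 662 to 755 FPKM on day 3, *Apoe* at 280.1 to 374 FPKM on day 0 and 3.06 to 5.22 FPKM on day 3 and *Cd68* at 79.2 to 84.3 FPKM on day 0 and 7.87 to 10.4 FPKM on day 3. Of 9 monocyte markers 8 were lower in control and 9 in mutant B cells. *Chil3* was at 32.3 to 75.5 FPKM on day 0 and 0.73 to 1.48 FPKM on day 3 and *Ms4a6c* at 80.9 to 102 FPKM on day 0 and 24.8 to 29.4 FPKM on day 3. *Ly6c2*, also made by lymphocytes, was at 112 to 148 FPKM on day 0. Its day 3 values differed by genotype, at 85.6 and 81 FPKM in control and at 39.9, 41.3 and 40.4 FPKM in mutant libraries. The 16 neutrophil markers tested of 18 were all lower in both genotypes, with *Pglyrp1* at 46.7 to 65.8 FPKM on day 0 and 1.43 to 3.09 FPKM on day 3, *Lcn2* at 28.6 to 107 FPKM on day 0 and 3.7 to 5.8 FPKM on day 3 and *Mpo*, myeloperoxidase, at 17.9 to 53.9 FPKM on day 0 and 0 to 0.18 FPKM on day 3. In mutant day 0 replicate 1, 15 of the 18 were over 1.5 times the mean of the other day 0 libraries. Of all 11000 genes at 1 FPKM or more on day 0, 154 were so in that library. None of 8 basophil or mast cell markers passed the filter, with *Prss34* at 1.05 to 3.03 FPKM on day 0 and 0 to 0.17 FPKM on day 3, *Mcpt8* at 0.63 to 2.31 FPKM on day 0 and 0 to 0.06 FPKM on day 3 and *Gata2* at 0.88 to 1.32 FPKM on day 0 and 0 to 0.06 FPKM on day 3.

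Dendritic cell markers were lower in 8 of 10 cases in control and 9 of 10 in mutant B cells, with *Dnase1l3* at 30.5 to 34.6 FPKM on day 0 and 6.48 to 9.77 FPKM on day 3, the integrin *Itgax* at 29.7 to 36.3 FPKM on day 0 and 0.36 to 0.45 FPKM on day 3 and *Siglech* of plasmacytoid cells at 15.5 to 21.8 FPKM on day 0 and 0.04 to 0.09 FPKM on day 3. Of 18 further T cell markers, 15 were measured and 11 tested, of which 9 were lower and 1 higher in each genotype. *Cd2*, which mouse B cells also carry, was at 175 to 213 FPKM on day 0 and 15.6 to 26.1 FPKM on day 3, *Tcf7* at 8.51 to 13.4 FPKM on day 0 and 0.52 to 0.9 FPKM on day 3 and *Lef1* at 8.19 to 9.94 FPKM on day 0 and 6.31 to 8.59 FPKM on day 3. *Trac*, *Trbc1* and *Trbc2*, of the T cell receptor constant regions, were on the list but not among the symbols measured, so they have no values here. Of 12 NK cell markers, 8 were lower in control and 9 in mutant B cells and 2 were higher in each. *Tyrobp*, an adaptor of NK and myeloid cells, was at 206 to 277 FPKM on day 0 and 5.25 to 9.14 FPKM on day 3, granzyme A (*Gzma*) at 35.4 to 42.01 FPKM on day 0 and 79.5 to 92.5 FPKM on day 3 and *Il2rb* at 13.9 to 17.8 FPKM on day 0 and 10.6 to 17.7 FPKM on day 3. The 4 markers that rose in both genotypes were *Thy1* (6.64 to 10.9 FPKM on day 0 and 72.3 to 113 FPKM on day 3), *Gzma*, *Gzmb* (2.22 to 2.9 FPKM on day 0 and 64.4 to 73.8 FPKM on day 3) and *Hemgn* (1.03 to 2.22 FPKM on day 0 and 3.15 to 5.15 FPKM on day 3), of which *Thy1*, *Gzmb* and *Hemgn* were named after their values were seen. Of 8 erythroid markers tested, 6 were lower and 1 higher in each genotype, with *Hba-a2* at 22.1 to 57.7 FPKM on day 0 and 0 to 0.29 FPKM on day 3, carbonic anhydrase 1 (*Car1*) at 22.3 to 42.6 FPKM on day 0 and 0 to 0.04 FPKM on day 3 and *Car2* at 16.6 to 33.6 FPKM on day 0 and 4.99 to 13.5 FPKM on day 3. Platelet markers were called lower for 2 of 3 tested, with *Clec1b* at 3.28 to 4.99 FPKM on day 0 and 0 to 0.06 FPKM on day 3, *Ppbp* at 2.45 to 4.23 FPKM on day 0 and 0 to 0.19 FPKM on day 3 and *Pf4* at 0.72 to 4.83 FPKM on day 0 and 2.05 to 3.79 FPKM on day 3. Of 4 stromal or endothelial markers, 4 were lower in control and 1 in mutant B cells, with *Pecam1* at 82.2 to 90 FPKM on day 0 and 13.2 to 17.8 FPKM on day 3, and with *Col1a1* and *Sparc* high only in control day 0 replicate 1 (28.8 and 23.8 FPKM).

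The genotypes were then compared within each day, with comparisons that share their libraries with those above. The Y-linked *Ddx3y* was at 0.24 and 0.02 FPKM in control and at 31.1 and 0.2 FPKM in mutant day 0 libraries. The part of sex in the day 0 differences was not tested. On day 0, 0 of the 39 genes were lower in mutant than in control B cells by limma (3 at an unadjusted p under 0.05, and 0.0370% of all genes called lower) and 2 were higher (11 at an unadjusted p under 0.05, and 0.240% of all genes called higher). *Hba-a1* was higher by 0.64 (SE 0.10, adjusted p = 0.0293) and *Prg2* by 1.00 (SE 0.15, adjusted p = 0.0177), with no overlap between the genotypes for either. The near-identical *Hba-a2* was at 37.9, 29.2, 57.7 and 22.1 FPKM on day 0, with overlapping genotypes and a log2 difference of 0.10 (SE 0.32, adjusted p = 0.938). Both copies summed to 87.4 and 74.1 FPKM in control and to 139.8 and 88.5 FPKM in mutant B cells, so the split of reads between them, which is uncertain, bears on the difference of *Hba-a1*. The part of the erythroid levels of single libraries (above) in it was not tested. Both calls depended on single day 0 libraries. A fit without 1 of these leaves 1 library in its group, so that its spread comes from the other groups only. Without mutant replicate 1, *Hba-a1* was at 0.49 (adjusted p = 0.144) and *Prg2* at 1.00 (adjusted p = 0.0684), and without control replicate 1 they were at 0.71 (adjusted p = 0.0609) and 0.94 (adjusted p = 0.0769). *Hba-a1* was also lost without control replicate 2 (0.57, adjusted p = 0.0789). *Hba-a1* further lost its call, with an adjusted p of 0.05005 to 0.0622, without either control day 3 library or without mutant day 3 replicate 1 or 2, which leaves the difference of 0.64 as it was. Over all alternatives *Hba-a1* held its call in 6 of 20 and *Prg2* in 15 of 19. Without mutant replicate 2, replicate 1, high in neutrophil genes, stood alone. The differences were then 1.36 for *S100a8*, 1.47 for *Camp*, 1.63 for *Ltf* and 0.72 for *Hbb-bs*. Without control replicate 2, control replicate 1, high in *Mmp9* (above), stood alone. The difference was then 0.63 for *Cd14* and -3.25 for *Mmp9*. With all libraries it was 0.32 and -1.75, and neither was called. The median difference of the 39 genes was 0.24, beside -0.0025 for all genes tested. A positive value was found for 33 of the 39, beside 5277 of all 10823 genes tested. The cell types differed, with 16 of 17 macrophage and 7 of 8 neutrophil genes positive, but 3 of 4 T cell genes negative. Of the further markers tested, 16 of 16 neutrophil markers were positive and 9 of 11 T cell markers negative. All genes share the same libraries, so their signs are not independent of each other.

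On day 3, 1 of the 39 genes was lower in mutant B cells (1.53% of all genes called lower) and 3 were higher (0.887% of all genes called higher), with a median of 0.0023 beside -0.010 for all genes tested. *Lyz2* had 10.8 ± 1.02 FPKM (SD, n = 2) in control and 18.2 ± 1.88 FPKM (SD, n = 3) in mutant B cells, a log2 difference of 0.71 (SE 0.11, adjusted p = 0.0015) from limma. *Adgre1* had 0.51 ± 0.1 and 1.42 ± 0.07 FPKM, a difference of 0.68 (SE 0.083, adjusted p = 4.25e-04). *Marco* had 1.62 ± 0.33 and 3.7 ± 0.68 FPKM, a difference of 0.84 (SE 0.13, adjusted p = 0.00158). *Axl* went the other way, with 3.4 ± 0.5 and 1.79 ± 0.23 FPKM, a difference of -0.66 (SE 0.088, adjusted p = 7.82e-04). The genotypes did not overlap for any of these 4 genes, and each call held with each library left out in turn. Of the other macrophage genes, *Hmox1* was at 13.5 to 16.6 FPKM and *Fcgr4* at 2.78 to 3.5 FPKM on day 3. The rest were at 1.37 FPKM or less in every day 3 library. *C1qb* had a difference of 0.42 (SE 0.14, adjusted p = 0.0732), and was called without mutant replicate 2 (0.56, adjusted p = 0.0193). *Csf1r* had a difference of 0.27 (SE 0.093, adjusted p = 0.0809), and *Vcam1* of 0.00 (SE 0.077, adjusted p = 0.99). Of the 17 macrophage genes, 14 had a positive value, with a median of 0.063. Values were negative for 5 of 8 neutrophil genes and for all 4 T cell genes tested. Over the 39 genes, 21 were positive and 16 negative, beside 5038 positive and 5769 negative of all 10823 genes tested. Of the 89 further markers tested, 7 were called lower and 3 higher in mutant B cells on day 3.

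The change from day 0 to day 3 itself differed between the genotypes for 6 of the 39 genes. The interaction was negative for 3 (2.22% of all genes called lower) and positive for 3 (1.02% of all genes called higher), and shares all its libraries with the comparisons above. *Marco*, which fell in control B cells, had an interaction of 1.13 (SE 0.19, adjusted p = 0.00564), *Adgre1* of 0.51 (SE 0.12, adjusted p = 0.0289) and *Lyz2* of 0.57 (SE 0.16, adjusted p = 0.0466). *Axl* had an interaction of -0.86 (SE 0.13, adjusted p = 0.00398), *Prg2* of -1.03 (SE 0.20, adjusted p = 0.0119) and *Hba-a1* of -0.91 (SE 0.14, adjusted p = 0.0041). In this fit the fall of *Lyz2* and *Adgre1* was smaller, and that of *Axl* larger, in mutant B cells, while *Prg2* fell in that genotype from a higher day 0 level. *Hba-a1* also fell more, but *Hba-a2* had an interaction of 0.02 (SE 0.44, adjusted p = 0.982), and the split of reads between these copies is uncertain. The calls of *Marco*, *Axl*, *Prg2* and *Hba-a1* held with each library left out. *Adgre1* lost its call without 6 of the 9 libraries (0.39 to 0.53, adjusted p = 0.0515 to 0.109), namely both replicates 2 of day 0, control day 3 replicate 1 and all 3 mutant day 3 libraries. *Lyz2* lost it without 6 (0.41 to 0.66, adjusted p = 0.0735 to 0.155), namely both replicates 2 of day 0, both control day 3 libraries and mutant day 3 replicates 2 and 3. Without mutant day 0 replicate 2, the neutrophil genes *S100a8*, *Ngp*, *Camp* and *Ltf* and both β-globins were also called, all with negative values, and without control day 0 replicate 2 *Csf3r* and *Mmp9* were called. With the replicate number as a block, *Lyz2* (0.50, adjusted p = 0.111) and *Adgre1* (0.52, adjusted p = 0.0864) lost their calls.

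**Figure D4:**
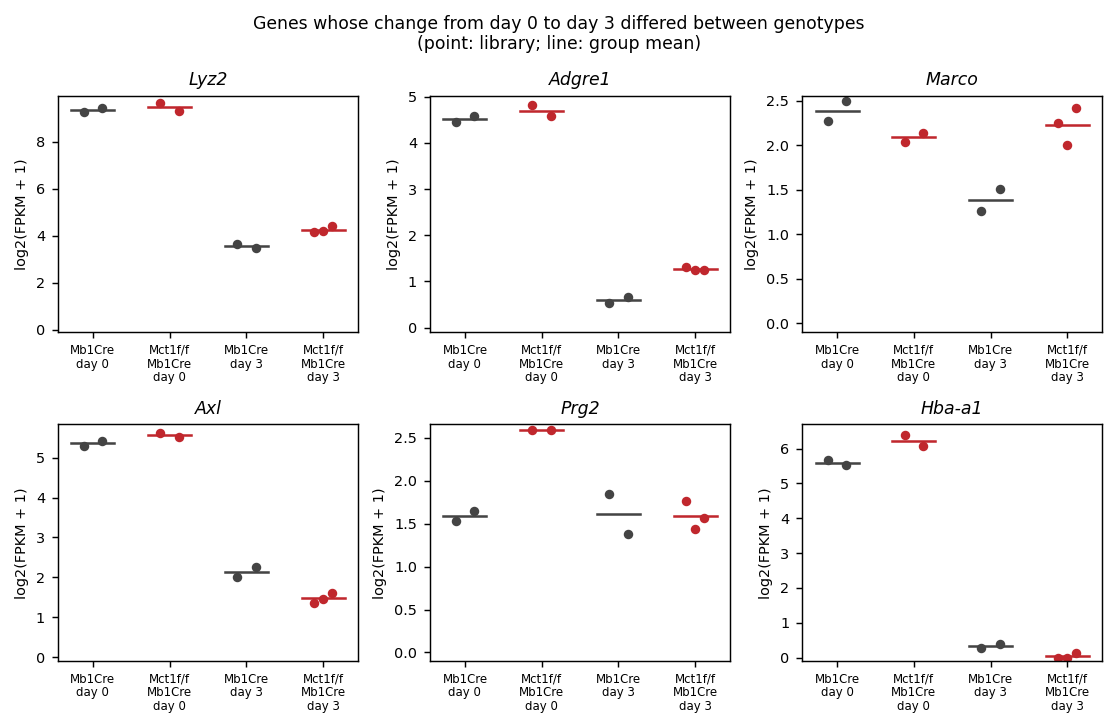
Log2(FPKM + 1) of the 6 genes with a called interaction, with 1 point per library and a line at the mean of each group (grey, Mb1Cre; red, Mct1f/fMb1Cre). On day 3 the Mct1f/fMb1Cre points lie above the Mb1Cre points for *Lyz2*, *Adgre1* and *Marco* and below them for *Axl*, and for *Prg2* and *Hba-a1* the genotypes are separate on day 0.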

How the data were processed

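RNA of splenic B cells was sequenced in 9 libraries of 2 genotypes and 2 days. The deposited values are FPKM per gene with 2 decimals, which the authors had computed by their sequencing institute. The submitters' notes name Bowtie2, GRCm38 and mm10, and the counting program and strand setting are not given in the sources used here. The labels and the study name different RNA extraction reagents. The members and the marker lists were chosen with earlier results of these data known. FPKM values were tested as log2(FPKM + 1) with limma 3.58.1 in R 4.3.3, on 4 group means with a trended prior and Benjamini-Hochberg adjustment over 10823 genes of at least 1 FPKM on average. The fit was tested on simulated data, and no outcome of that test is given here. Of the 41 genes, those of at least 10 FPKM on day 0 in either genotype are given by library, as are those with a called genotype difference, and of each further list the 3 with the highest day 0 mean are named. Without counts, depth is unknown and no counting interval is given. Alternatives covered the pseudocount, filter, scaling, samples fitted, replicate block, log2 limit and each library left out. Where that left 1 library in a group, the spread came from the other groups only. Promoters are from RefSeq (GRCm38.p6), matched by symbol. Of the 15 genes outside the lists with the largest falls, 1 is not reported here.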

Additional observations from a re-analysis of the deposited data

Results flagged for a closer look

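Of the genes described, 6 changed differently from day 0 to day 3 in the 2 genotypes, by the interaction term of the limma fit. *Marco* had an interaction of 1.13, falling from 4.23 ± 0.58 to 1.62 ± 0.33 FPKM (SD, n = 2 libraries each) in control B cells and going from 3.25 ± 0.22 (n = 2) to 3.7 ± 0.68 FPKM (n = 3) in mutant B cells. *Lyz2* (0.57) and *Adgre1* (0.51) fell less in mutant B cells by this test, but *Lyz2* held its call in only 6 and *Adgre1* in 8 of 19 alternatives, and both lost it with the replicate block. *Axl* (-0.86) and *Hba-a1* (-0.91) fell more, and held their calls in 17 and 18 of 19. The near-identical *Hba-a2* fell by 5.10 in control and 5.08 in mutant B cells on the log2 scale, with an interaction of 0.02 (SE 0.44, adjusted p = 0.982), so the value of *Hba-a1* is uncertain with the split of reads between the copies. *Prg2* (-1.03) fell in mutant B cells, from 5.05 and 5.03 FPKM on day 0, and its days overlapped in control B cells. These interactions include the day 0 libraries, of which mutant replicate 1 had the highest Y-linked transcripts, and the part of sex in them was not tested. Groups of 2 or 3 libraries are too small for a test of single outlying libraries.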

How the results depend on the processing

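No gene of the 41 with a call reversed under any of the alternatives, at most 20 per comparison. The count of members lower on day 3 was 29 to 39 in control and 30 to 39 in mutant B cells, the lowest with a filter at 5 FPKM, which left fewer genes to test, and it was 37 and 36 to 38 with 1 library left out. Quantile normalization called 1 member (*Marco*) higher in mutant B cells. The median log2 change of all genes, -0.12 and -0.14 in control and mutant B cells, became -0.31 and -0.30 with equal library totals, and 0.065 and 0.056 with median-of-ratios scaling.

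The genotype calls moved more. On day 0, members called higher went from 2 to 1 with a pseudocount of 0.1, a filter at 5 FPKM, quantile normalization or a log2 limit of 1, to 0 with no filter or only the groups compared, and to 0 to 6 with 1 library left out, where 0 to 1 were lower. On day 3, a pseudocount of 0.1 gave 2 lower and 6 higher, a pseudocount of 5 gave 0 and 1, and a limit of 1 gave 0 and 0. For the interaction, a limit of 1 gave 1 lower and 1 higher, and a pseudocount of 5 or no filter gave 1 higher. With 1 library left out, 3 to 9 were lower and 1 to 3 higher. The cause was not tested. Over all genes tested, the called counts ranged from 1 to 44 lower and 0 to 57 higher on day 0, 27 to 245 and 27 to 176 on day 3, and 40 to 293 and 16 to 154 for the interaction. A limit of 1 left 1867 lower and 1324 higher in control and 1794 and 1200 in mutant B cells of the day comparisons.

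Same-numbered libraries did not deviate together (correlations of -0.122 to 0.0867), so the numbers do not show pairing. With the replicate block, 37 and 38 members were lower on day 3, 1 was higher between genotypes on day 0, 1 lower and 3 higher on day 3, and the interaction had 3 lower and 1 higher (*Marco*), having lost *Lyz2* and *Adgre1*. Exchanging the numbers of the control day 0 libraries, tried after seeing the data, gave 1 higher on day 0 and 1 higher for the interaction.

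Levels under 1 FPKM on day 3 rest on few fragments, and their number is not known.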

Other observations

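Genes outside all marker lists also fell. Of 1978 genes outside the lists with a day 0 mean of at least 10 FPKM that were called lower in both genotypes, the 15 with the largest mean log2 change included genes of myeloid cells and of B cells. The lectin *Fcna* (ficolin A, made by macrophages) was at 52.3 to 61.3 FPKM on day 0 and 0 to 0.04 FPKM on day 3, transferrin (*Trf*) at 52.5 to 72.1 FPKM on day 0 and 0.18 to 0.31 FPKM on day 3, the second lysozyme *Lyz1* at 49.1 to 75.4 FPKM on day 0 and 0.46 to 1.36 FPKM on day 3 and *Tgfbi* at 36.4 to 52.03 FPKM on day 0 and 0.3 to 0.77 FPKM on day 3. *Hpgd*, which degrades prostaglandins, was at 21.6 to 32.7 FPKM on day 0 and 0 FPKM on day 3. Genes that B cells are known to use stood beside them, with the complement receptor *Cr2* at 93.9 to 122 FPKM on day 0 and 1.49 to 2.29 FPKM on day 3, the IgM receptor *Fcmr* at 944 to 1022 FPKM on day 0 and 25.6 to 37.7 FPKM on day 3 and the ICOS ligand *Icosl* at 122 to 141 FPKM on day 0 and 1.77 to 2.56 FPKM on day 3. *Tsc22d3*, a glucocorticoid-induced gene, was at 131 to 269 FPKM on day 0 and 6.81 to 7.66 FPKM on day 3 and *Rgs2* at 50.04 to 52.7 FPKM on day 0 and 0.24 to 0.47 FPKM on day 3. Further genes were *S100a4* (89.4 to 126 FPKM on day 0 and 1.34 to 3.77 FPKM on day 3), *Ifitm6* (29.2 to 49.6 FPKM on day 0 and 0 to 0.1 FPKM on day 3), *Cd7* (32.5 to 42.8 FPKM on day 0 and 0.15 to 0.35 FPKM on day 3) and *I830077J02Rik* (26.1 to 30.8 FPKM on day 0 and 0.08 to 0.2 FPKM on day 3). Which cells these transcripts came from was not tested.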
